A study of Homo sapiens with 46 samples.

Results

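The genes described are the protein-coding genes of human chromosome 18, measured by RNA sequencing in DLD-1, a cell line derived from a human colorectal adenocarcinoma. A gene was a member when its first annotated chromosome in the count table was chromosome 18 and its type was protein-coding, and RPL17, SEH1L, NDUFV2 and ATP5F1A were left out. This gave 262 genes of the 62756 in the table, and the 18666 protein-coding genes of the other autosomes served as the reference. The choice used position and gene type and no expression value. The 46 libraries came from 4 lines. The parental line was wild type, and in the other 3 an auxin-inducible degron had been placed at the N-terminus of the endogenous Lamin A/C (LAC), Lamin B1 (LB1) or Lamin B2 (LB2). All 4 lines, the parental included, received 1 mM auxin for 0, 16 or 96 h, so the parental line shows what auxin does without a tagged lamin. Each group had 4 libraries except LB1 at 0 h and LB2 at 96 h, which had 3, and each library came from 1 well of cells, so p-values measure the spread between wells. The labels do not say whether a tagged line was 1 clone, and a line and its clone cannot be told apart here.

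Lamins are intermediate filament proteins that line the inner face of the nuclear envelope. Long stretches of poorly transcribed chromatin, called lamina-associated domains, lie against them. Chromosome 18 is gene-poor and is known to sit near the nuclear edge in many human cell types, whereas chromosome 19, of similar size, is gene-dense and sits inside. In the degron system auxin joins the tagged protein to a ubiquitin ligase and the protein is degraded, while its mRNA is not a target. Chromosome 18 also carries the desmosomal cadherin cluster, a cluster of clade B serpins, the SMAD genes of TGF-beta signalling and BCL2.

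The libraries held 479446 to 37309421 counted fragments (median 11533218). Of the 6 with under 5000000, 5 were 0 h libraries, so low depth went partly with the 0 h groups. At the lowest depth a gene with no count could still be at up to 6.53 CPM (counts per 1e6 counts), and at the highest at 0.0821 CPM, for counting error only. Colorectal epithelial markers summed to 5620 to 12776 CPM and 9 of 10 averaged at least 1 CPM. Fibroblast markers summed to 0 to 6.80 CPM (1 of 6 at that level, COL1A2 and DCN at 0 in all libraries), leukocyte markers to 0 to 5.39 CPM (1 of 5) and endothelial markers to 2.18 to 17.5 CPM (1 of 4). Each value is a level over a whole well, so a change in each cell and a change in the mix of cells cannot be told apart. No replicate pair was as alike as 1 library deposited as 2. Because the tag acts on protein, lamin mRNA does not check the labels; LMNA mRNA fell in LB1 at 96 h (log2 fold change -1.25, SE 0.28, adjusted p = 0.00359). In the tagged lines against the parental line at 0 h, LMNA differed in LAC by -0.77 (adjusted p = 0.0346), LMNB1 in LB1 by -0.64 (0.0115) and LMNB2 in LB2 by -1.02 (8.57e-04), all log2 fold changes. In LAC at 0 h LMNB1 was higher by 0.62 (adjusted p = 0.0025) and LMNB2 by 0.81 (adjusted p = 0.00481).

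Of the 262 genes, 177 (67.6%) passed the filter on low counts and were tested, against 70.3% of the reference genes. The other 85 were not tested, and 25 of them had no count in any library. A gene passes when 1 group of libraries is high enough, so counts over the tested genes describe those genes and not all 262. Tested members had a median GC content of 44.8% in their transcripts, against 49.9% for the reference genes and 59.9% for chromosome 19, and spanned a median of 63.1 kb against 32.2 kb. Their median level per length was 5.73 CPM per kb against 5.22. In several comparisons below, log2 fold changes of the reference genes ran with GC content. Among the tested members, 75 shared exon sequence with a gene on the opposite strand and 24 with a gene on the same strand, and whether strand was used in counting is not given in the sources used here, so reads of such pairs may not be told apart.

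Promoter sequence was available for 223 of the 262 genes (RefSeq, GRCh38.p14). The 250 bases before a start are shown for 3 genes on which the results turn: TUBB6, which changed in all 4 lines, SERPINB5, which differed between the lines before auxin, and EPB41L3, which was counted in LB1 libraries alone. Capitals mark a match to a motif searched on both strands, written 5′ to 3′ on the gene's strand. The TUBB6 window is chr18:12307419-12307668 on the plus strand, with 17 CpG steps, and holds CATTCC, the reverse strand of GGAATG (the core read by TEAD factors), 148 bases before the start.
TUBB6: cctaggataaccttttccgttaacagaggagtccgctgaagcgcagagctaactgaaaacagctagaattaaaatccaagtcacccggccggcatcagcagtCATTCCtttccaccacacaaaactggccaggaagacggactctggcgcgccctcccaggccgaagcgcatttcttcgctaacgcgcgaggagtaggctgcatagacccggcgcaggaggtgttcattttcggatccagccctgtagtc
The SERPINB5 window is chr18:63476708-63476957 on the plus strand, with 13 CpG steps, and holds the GC box GGGCGG 77 bases before the start.
SERPINB5: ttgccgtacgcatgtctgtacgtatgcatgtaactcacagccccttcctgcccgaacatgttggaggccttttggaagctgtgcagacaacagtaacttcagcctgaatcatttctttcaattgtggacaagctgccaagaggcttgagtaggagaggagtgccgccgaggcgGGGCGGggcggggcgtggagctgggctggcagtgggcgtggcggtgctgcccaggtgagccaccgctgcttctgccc
EPB41L3 has 4 windows in the table. The farthest upstream, chr18:5628992-5629241 on the minus strand, has 25 CpG steps and held none of the 5 motifs, and chr18:5543998-5544247 has 23 and holds a GC box 54 bases before the start.
EPB41L3, first start: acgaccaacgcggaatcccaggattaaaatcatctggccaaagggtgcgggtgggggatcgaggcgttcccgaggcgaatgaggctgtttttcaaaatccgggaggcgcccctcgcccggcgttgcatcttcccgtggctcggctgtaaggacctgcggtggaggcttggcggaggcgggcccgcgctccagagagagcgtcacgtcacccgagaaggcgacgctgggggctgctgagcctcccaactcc
EPB41L3, second start: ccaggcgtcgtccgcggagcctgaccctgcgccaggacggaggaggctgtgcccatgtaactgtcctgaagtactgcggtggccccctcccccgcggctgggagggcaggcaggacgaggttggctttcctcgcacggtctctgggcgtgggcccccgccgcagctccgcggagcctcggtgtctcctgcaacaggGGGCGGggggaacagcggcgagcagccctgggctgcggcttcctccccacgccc
These matches describe letters in a window and not bound sites. Over 351 windows of members and 35116 of all genes, GGGCGG was present in 52.7% against 42.6%, CCAAT in 26.2% against 32.0%, GGAATG in 13.1% against 11.9%, TATAAA in 9.7% against 10.7%, and the CArG motif of serum response factor in 1.1% against 1.2%. Members' windows had a median of 18 CpG steps against 11. The 35116 windows belong to 27305 genes taken without regard to type, whereas all members are protein-coding. The sets thus differ in more than chromosome, and windows of other protein-coding genes alone were not compared. The members' transcripts are AT-rich on median while their promoter windows are not.

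Summed over its genes, the chromosome gave between 1.24% and 1.31% of autosomal protein-coding counts on average in 11 of the 12 groups. LAC at 0 h was lower, at 1.13%, with 3 of its 4 libraries under 1.2%. The parental line gave 1.29% ± 0.0443, 1.28% ± 0.0459 and 1.25% ± 0.0826 at 0, 16 and 96 h (mean ± SD, n = 4). LB1 gave 1.29% ± 0.0521 (n = 3), 1.24% ± 0.104 and 1.31% ± 0.0594. LB2 gave 1.26% ± 0.173, 1.31% ± 0.104 and 1.30% ± 0.0600 (n = 3 at 96 h). LAC gave 1.13% ± 0.153 at 0 h, 1.28% ± 0.0459 at 16 h and 1.30% ± 0.0411 at 96 h. The 4 LAC libraries at 0 h held 0.915%, 1.27%, 1.15% and 1.19%, and the lowest of these is the library of 3318819 counts. LB2 replicate 1 at 0 h, with 1894447 counts, was also low at 1.00% (see the plot of shares by library). The part that depth plays in these low shares was not tested.

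**Figure D1:**
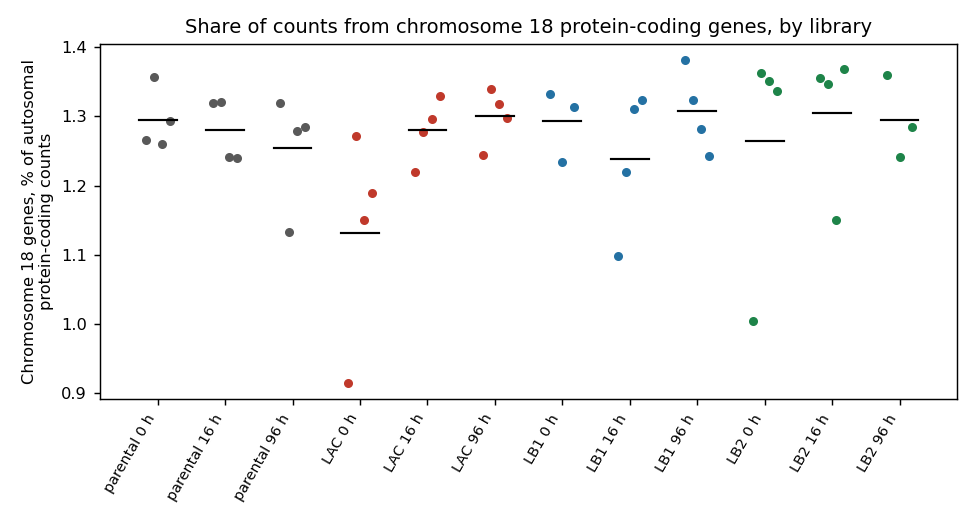
Share of autosomal protein-coding counts that fell on the 262 chromosome 18 genes (y axis, %), 1 point per library, by line and hours of auxin. Most libraries lie between 1.2% and 1.4%, and LAC replicate 1 at 0 h is the lowest at 0.915%.

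With all 46 libraries fitted together, auxin for 96 h in the LAC line gave more called members than any other of the 14 comparisons. That order depends on the fit: with the compared groups alone 14 were called, beside 38 and 37 for the parental line at 16 and 96 h, and with the trend on GC content and length taken out LAC at 96 h had 47 beside 50 for LAC against parental at 0 h. Lamin protein was not measured in these files. In LAC at 96 h against 0 h 44 of 177 members were called at an adjusted p under 0.05 (edgeR's quasi-likelihood test, Benjamini-Hochberg over 21484 genes), 31 higher and 13 lower. That is 24.9% of the tested members beside 21.6% of the reference genes and 15.4% of all genes. Of the reference genes 9.21% were called higher and 12.4% lower. The median log2 fold change was 0.20 for members and 0.00 for the reference genes. The highest rises among members of at least 1 CPM were L3MBTL4 (1.49), APCDD1 (1.47) and BCL2 (1.24), and the falls included TUBB6 (-1.18) and CTDP1 (-0.78). Every call was refitted with 9 other settings and with each library of the comparison left out in turn, and these are called alternative fits. With library size in place of TMM scaling 67 members were called (59 higher, 8 lower). Of the 13121 reference genes 3301 were called in that fit (2165 higher, 1136 lower). This scaling moved the median of all genes by 0.12. With a smooth trend on GC content and length taken out, the split was 23 higher to 24 lower.

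By its median, chromosome 18 stood 3rd highest of 22 autosomes in this comparison and chromosome 19 was lowest at -0.41. Across the 13121 reference genes the log2 fold change and GC content had a Spearman rho of -0.53, and across the 177 members -0.22. These points are genes of the same libraries and are given as a description. With the GC and length trend taken out the median of chromosome 18 was 0.02 and it stood 5th. Leaving out LAC replicate 1 at 0 h lowered the median from 0.20 to 0.13 and the count from 44 to 28, and leaving out replicate 2 raised them to 0.30 and 67. The 133 tested genes of the long arm had a median of 0.23 and the 44 of the short arm 0.16. Between 30 and 40 Mb the median was 0.41 over 25 genes, and in the other 10-Mb stretches it lay between 0.09 and 0.26. At 96 h the stretch from 30 to 40 Mb had medians of 0.13 in the parental line, -0.06 in LB1 and 0.14 in LB2. For the LAC response minus the parental response its median was 0.14, beside 0.17 over all members. The highest in that difference was 0.34, between 10 and 20 Mb.

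**Figure D2:**
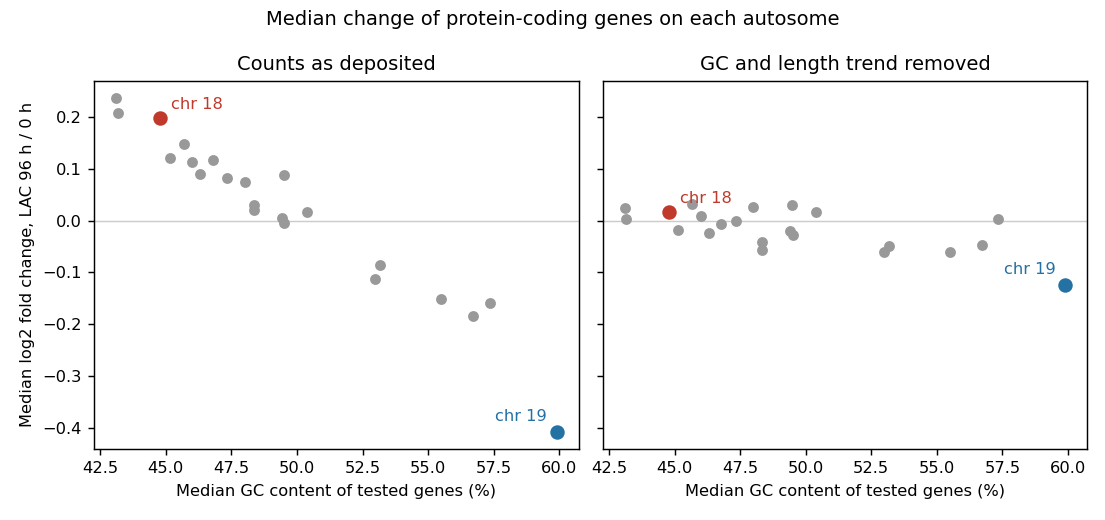
Median log2 fold change of each autosome's tested protein-coding genes in LAC at 96 h against 0 h (y axis) by their median transcript GC content (x axis, %), as deposited and with the trend on GC and length removed. Chromosome 18 is at 0.20 and chromosome 19 at -0.41 on the first panel, and chromosome 18 is at 0.02 on the second.

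At 16 h the LAC line had already the highest chromosome median of all 22 autosomes on chromosome 18, 0.23 against 0.04 for the reference genes, but few single members passed: 8 were called higher and 1 lower (reference genes 2.04% and 0.48%), in all 5.08% beside 2.52% of the reference genes and 1.78% of all genes. GC content ran with the change here too (rho -0.60 across reference genes, -0.40 across members), and with the trend taken out the median was 0.06, still 1st, and 3 members were called higher. With the 2 groups fitted alone 0 were called. In the edgeR fit 65 of 177 members had an unadjusted p under 0.05, beside 3412 of 13121 reference genes. DESeq2 called 17 members, and its count over the reference genes is not given here. RNF152, a lysosomal ubiquitin ligase, had the largest called rise, log2 fold change 1.16, SE 0.32, adjusted p = 0.0453, and the call was lost in 14 of 17 alternative fits (7 of them leaving out 1 library, adjusted p up to 0.334). With the block on replicate number its adjusted p was 0.051. RPRD1A, a regulator of RNA polymerase II, rose by 0.64 on the log2 scale, a call lost in 6 of 17 alternative fits (4 of them leaving out 1 library, adjusted p up to 0.334). TUBB6 fell, log2 fold change -0.44, SE 0.12, adjusted p = 0.0359, and the call was lost in 11 of 17 alternative fits (7 of them leaving out 1 library, adjusted p up to 0.334). Leaving out LAC replicate 2 at 0 h raised the count from 9 to 44, and leaving out replicate 4 at 16 h took it to 0.

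In the parental line auxin alone changed members in about the share seen over the genome. At 96 h 19 members were called, 11 higher and 8 lower (reference genes 5.88% and 3.29%), or 10.7% beside 9.17% of the reference genes and 7.78% of all genes, with medians of 0.05 and 0.07. At 16 h 18 were called, 13 higher and 5 lower (reference genes 6.39% and 3.34%), or 10.2% beside 9.72% and 9.01%, with medians of 0.09 and 0.09. The direction of the small excess depends on scaling. With RLE size factors the splits were 10 higher to 12 lower at 96 h and 8 to 7 at 16 h. Those of the reference genes were 570 to 587 and 439 to 632. With library size alone the members' splits were 9 to 13 and 6 to 7. The reference genes then split 451 to 654 and 331 to 646. Without the libraries under 5000000 counts 38 members were called at 96 h and 31 at 16 h. ONECUT2, a hepatic and neuronal transcription factor, rose at both times by 0.86 on the log2 scale, and ATP8B1, a phospholipid flippase, by 0.59 at 16 h and 0.77 at 96 h. TSHZ1, a zinc finger factor, rose by 0.85 and 0.69, and SEC11C, a subunit of the signal peptidase, rose by 1.07 at 96 h. None of these 4 genes lost its call in any of 17 alternative fits of these comparisons.

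Auxin in the LB1 and LB2 lines was followed by fewer calls. In LB1 7 members were called at 96 h, 1 higher and 6 lower (reference genes 1.33% and 3.22%), in all 3.96% beside 4.55% of the reference genes and 3.17% of all genes, and chromosome 18 had the lowest median of the 22 autosomes, -0.05 against -0.01. Under other settings the split was 2 to 5 (RLE), 3 to 5 (library size) and 6 to 16 (trend on GC content and length taken out). At 16 h 2 were called in LB1 (1 in each direction, reference genes 1.52% higher and 0.564% lower; in all 1.13% beside 2.09% and 1.5%), and the split was 0 to 2 with RLE, 0 to 3 with library size and 5 to 8 with the trend removed. LB2 had 11 members called at 96 h, 7 higher (reference 2.8%) and 4 lower (2.17%), in all 6.21% beside 4.97% and 3.55%, with splits of 12 to 2 by library size and 9 to 13 with the trend removed. LB2 had 5 at 16 h, 4 higher (reference 2.13%) and 1 lower (0.335%), in all 2.82% beside 2.46% and 1.81%, 1 in each direction with RLE or library size, and 6 to 4 with the trend removed. The LB2 median at 16 h, 0.14 against 0.06, was 2nd of 22, and GC content ran with the change (rho -0.39 across reference genes). The splits of the reference genes moved with scaling as well. Under library size they were 256 to 336 in LB1 and 593 to 213 in LB2 at 96 h. At 16 h they were 95 to 148 and 126 to 74. Under RLE they were 209 to 413 in LB1 at 96 h, and 114 to 122 in LB1 and 158 to 72 in LB2 at 16 h. The members' percentages in LB1 and LB2 are close to those of the reference genes.

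**Figure D3:**
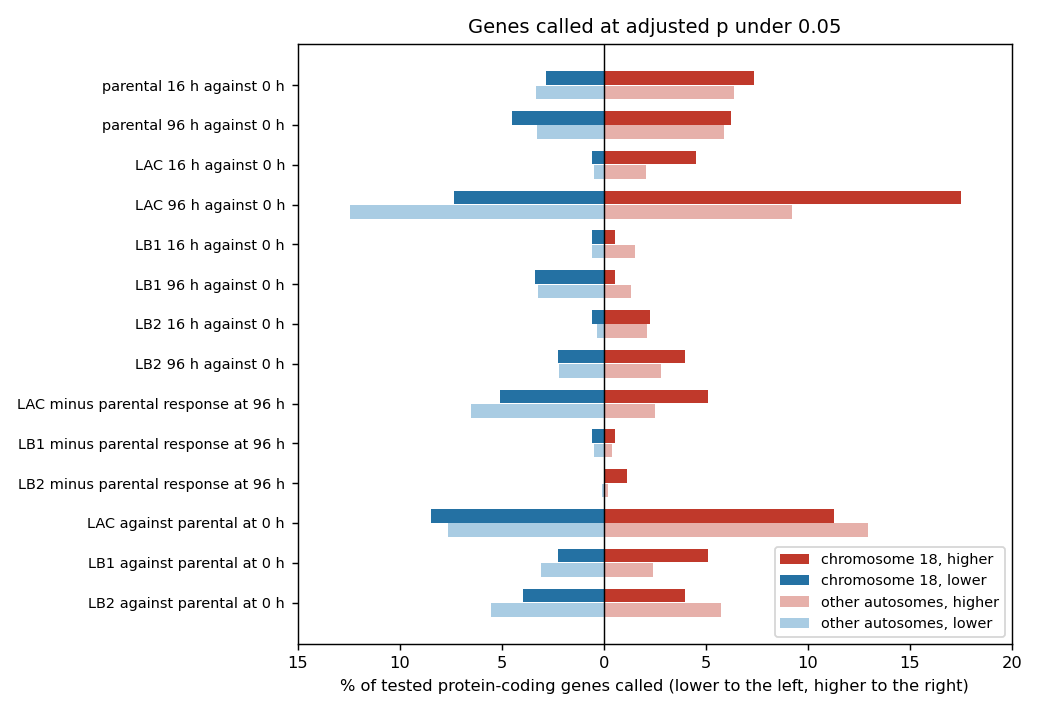
Percent of tested genes called higher (to the right) and lower (to the left) at an adjusted p under 0.05 in each of the 14 comparisons, for chromosome 18 members and for the other autosomal protein-coding genes. In this fit of all 46 libraries LAC at 96 h has the highest share of members, with 31 of 177 called higher and 13 lower.

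The calls of different lines overlapped in part. At 96 h the parental and LAC lines had 8 members called in both, 7 in the same direction, which is 36.8% of the 19 parental calls and 15.9% of the 44 LAC calls. Over the reference genes the same shares were 32.3% of 1203 parental calls and 13.7% of 2840 LAC calls. Only TUBB6 and IMPA2 were called in the same direction at 96 h in all 3 tagged lines, and TUBB6 was called in the parental line as well. Over all 14 comparisons 90 members were called at least once and 87 tested members never. Among those never called were TYMS, the thymidylate synthase that supplies DNA synthesis, NDC80, a kinetochore subunit, SMAD2, DSG2 and MYL12A. For calls in all 3 tagged lines and calls over all 14 comparisons, no matching counts over the reference genes are given here. These counts are therefore not read as particular to chromosome 18.

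**Figure D4:**
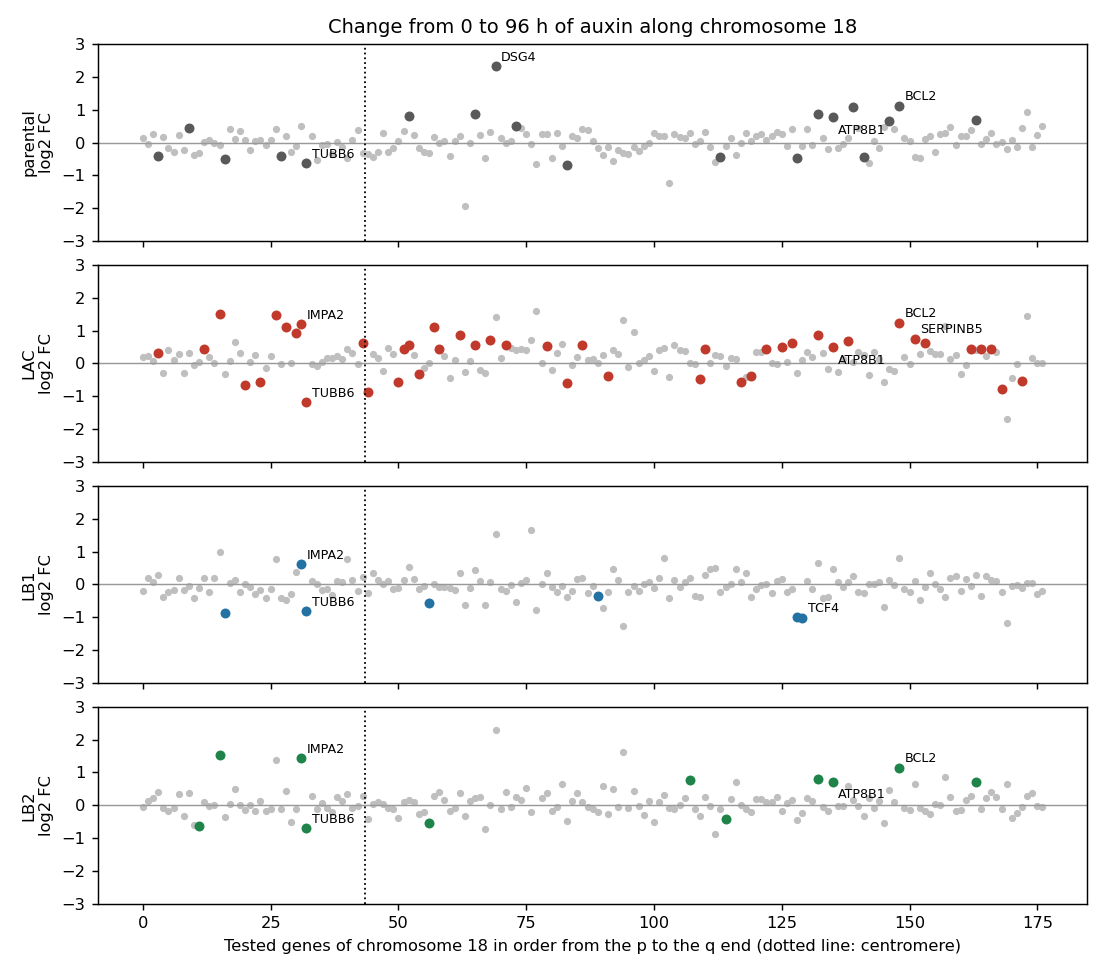
Log2 fold change at 96 h against 0 h (y axis) of tested members in their order along chromosome 18 (x axis, from the p to the q end) in the 4 lines, with called genes in colour and the others grey. Called genes lie on both arms in LAC, and 1 LB2 gene lies outside the plotted range of ±3.

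Among the cytoskeletal members TUBB6 fell most. It encodes a class V beta-tubulin, a subunit of microtubules (ENSG00000176014.13, chr18:12307669-12344320, plus strand). In the parental line it was at 120.3, 123, 137 and 112 CPM at 0 h and 75.8, 83.6, 82.2 and 75.7 at 96 h. In LAC it went from 149, 133, 158 and 158 to 69.0, 62.1, 66.7 and 65.8 CPM. The libraries of the 2 times do not overlap in either line, and LAC ended lower from a higher start. In LB1 the values were 90.9, 110.2 and 115 CPM before and 47.0, 55.9, 71.1 and 62.6 after. In LB2 they were 169, 156, 151 and 145 and 83.5, 103 and 98.1. The log2 fold changes were -0.64 ± 0.12 (SE; adjusted p = 3.1e-04) in the parental line, -1.18 ± 0.12 (6.23e-10) for LAC, -0.82 ± 0.13 (1.46e-05) for LB1 and -0.71 ± 0.13 (3.39e-04) for LB2. The LB2 call was lost when its 2 groups were fitted alone (adjusted p = 0.0795). The fall in LAC exceeded that in the parental line by 0.54 ± 0.17 (adjusted p = 0.0339), a difference that was lost in 12 of 25 alternative fits (7 of them leaving out 1 library, adjusted p up to 0.402). It was -0.22 (adjusted p = 0.402) with the trend on GC and length removed. TUBB6 shares exon sequence with AFG3L2 on the opposite strand, and other beta-tubulin genes are close in sequence.

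Other cytoskeletal members changed in LB1 and LB2. MYL12B, a myosin regulatory light chain, fell in LB2 at 96 h by 0.64 on the log2 scale, a call lost in 8 of 16 alternative fits (5 of them leaving out 1 library, adjusted p up to 0.330). It is nearly identical to its neighbour MYL12A, so reads may be divided between them. ARHGAP28, a GTPase-activating protein, fell in LB1 at 96 h, log2 fold change -0.86, SE 0.18, adjusted p = 0.00136. It fell in the parental line by 0.50 as well, a call lost in 8 of 17 alternative fits (7 of them leaving out 1 library, adjusted p up to 0.185). Of the 12 genes listed for actomyosin and the cytoskeleton 10 were tested, and at 96 h none was called higher, 1 was called lower in LAC and 2 were in each of the other lines. In parental, LAC, LB1 and LB2, 3.29%, 12.4%, 3.22% and 2.17% of the reference genes were called lower. In the same order 5.88%, 9.21%, 1.33% and 2.8% were called higher. The 10 listed genes had medians of -0.27, 0.02, -0.11 and 0.01 in that order, beside 0.07, 0.00, -0.01 and -0.01 over the reference genes.

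EPB41L3, a band 4.1 protein that ties the membrane to spectrin and actin, was counted in LB1 alone (ENSG00000082397.18, chr18:5392381-5630700, minus strand). Its raw counts were 26, 0 and 12 in the LB1 libraries at 0 h, 11, 6, 6 and 30 at 16 h, and 23, 9, 25 and 8 at 96 h. All 35 libraries of the other lines had 0. Against the parental group, with 3 counts over the group as the floor, LB1 was at least 11.5-fold higher at 0 h, 19.3-fold at 16 h and 16.7-fold at 96 h. These levels are low, and they were present at 0 h as well as after auxin.

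Of the adhesion and matrix genes, DSC2 and LAMA3 rose in LAC at 96 h, though neither rise passed the test against the parental response (differences of 0.39, adjusted p = 0.257, and 0.44, adjusted p = 0.162). Only 3 of the 7 desmosomal cadherins and 1 of 4 other cadherins passed the filter on low counts. DSC2, a desmocollin, was at 23.3, 25.3, 17.5 and 23.5 CPM in LAC at 0 h and 37.4, 36.5, 37.6 and 37.7 at 96 h, without overlap. The rise was log2 fold change 0.73, SE 0.15, adjusted p = 7.08e-04, and the call was lost in 2 of 17 alternative fits (with the trend on GC and length removed and with that trend and the block, adjusted p up to 0.0667). At 0 h DSC2 was lower in LAC than in the parental line (log2 fold change -0.75, adjusted p = 6.06e-04 in the edgeR fit). DSG2, a desmoglein, was at 413 ± 118 (SD, n = 4) and 461 ± 15.6 (SD, n = 4) CPM, not called. DSG4, a hair desmoglein, was called in the parental line at 96 h (log2 fold change 2.33) at levels of 3.58 CPM or less. LAMA3, the laminin chain of epithelial basement membranes, was at 71.0, 85.1, 69.8 and 69.8 CPM in the parental line and 30.8, 38.3, 40.0 and 42.5 in LAC at 0 h, log2 fold change -0.95, SE 0.14, adjusted p = 4.65e-06. In LAC it rose to 55.7, 42.4, 52.1 and 55.5 CPM at 96 h, a call lost in 7 of 17 alternative fits (4 of them leaving out 1 library, adjusted p up to 0.115). LAMA1, the laminin chain of embryonic basement membranes, was higher in LAC than in the parental line at 0 h, log2 fold change 1.01, SE 0.20, adjusted p = 3.62e-04.

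SERPINB5, the non-inhibitory serpin also called maspin, was lower before auxin in all 3 tagged lines than in the parental line (ENSG00000206075.14, chr18:63476958-63505085, plus strand). Before auxin the parental libraries held 53.4, 74.6, 67.8 and 69.1 CPM. LAC held 7.77, 21.3, 15.7 and 15.8 CPM, LB1 14.8, 17.9 and 16.8 and LB2 7.76, 22.8, 24.5 and 18.9, all below the lowest parental library. The log2 fold changes were -2.05 ± 0.19 (SE; adjusted p = 8.88e-11), -2.03 ± 0.22 (1.36e-09) and -1.73 ± 0.19 (3.92e-09), and none lost its call in an alternative. Since the tagged lines had no auxin at this time, the difference was present before any was added. The response to auxin at 96 h differed between LAC and the parental line. In LAC the libraries at 96 h held 26.6, 28.0, 26.2 and 27.0 CPM, a rise of 0.75 ± 0.19 on the log2 scale (SE; adjusted p = 0.00378, lost with the groups fitted alone). In the parental line the level went from 66.2 ± 9.06 to 48.9 ± 6.21 CPM at 96 h (SD, n = 4; adjusted p = 0.119 in the edgeR fit), and at 16 h it fell by 0.60 on the log2 scale (adjusted p = 0.0257; the call was lost in 6 of 17 alternative fits, 5 of them leaving out 1 library, with an adjusted p of up to 0.0976). The LAC response exceeded the parental response by 1.19 ± 0.26 (adjusted p = 0.00435). In LB1 the gene fell at 16 h to 5.85, 6.68, 9.06 and 8.18 CPM (log2 fold change -1.09, adjusted p = 0.00435). It was back at 16.0, 18.3, 20.1 and 15.0 CPM at 96 h. In LB2 the excess over the parental response was 1.10 (adjusted p = 0.0494; the call was lost in 15 of 24 alternative fits, 13 of them leaving out 1 library, with an adjusted p of up to 0.181). SERPINB8, the only other of 10 clade B serpins that was tested, was lower in LB1 than in the parental line at 0 h (log2 fold change -0.63; the call was lost in 7 of 16 alternative fits, 6 of them leaving out 1 library, with an adjusted p of up to 0.244).

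**Figure D5:**
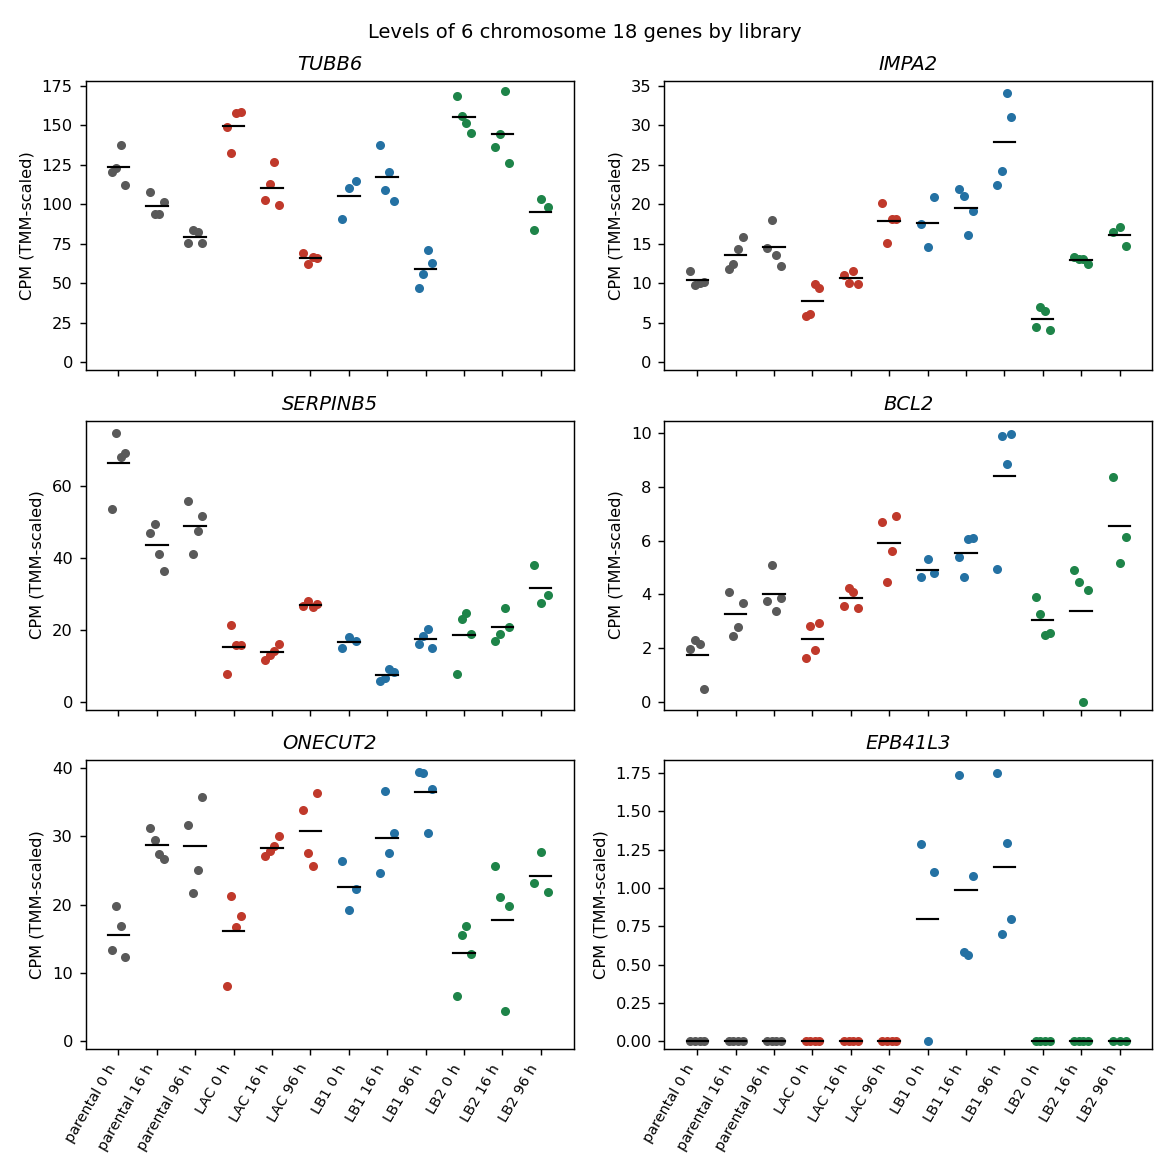
CPM of TUBB6, IMPA2, SERPINB5, BCL2, ONECUT2 and EPB41L3 (y axes) in each library, by line and hours of auxin. TUBB6 falls by 96 h in each line, SERPINB5 is lower in each tagged line than in the parental line at 0 h, and EPB41L3 is above 0 in LB1 libraries alone.

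Of the 7 TGF-beta genes, which encode the SMAD transducers and their repressors, 6 were tested and 3 changed in LAC at 96 h, where 21.6% of the reference genes were called. SMAD4, the shared partner of activated SMADs, rose by 0.44 ± 0.14 on the log2 scale (SE), and the co-repressor TGIF1 by 0.45 ± 0.13. The inhibitor SMAD7 fell by 0.46 ± 0.13. The SMAD4 call was lost in 8 of 17 alternative fits (5 of them leaving out 1 library, adjusted p up to 0.195), the SMAD7 call lost in 5 of 17 alternative fits (2 of them leaving out 1 library, adjusted p up to 0.182) and the TGIF1 call lost in 2 of 17 alternative fits (with the groups fitted alone and without LAC replicate 1 at 0 h, adjusted p up to 0.0690). The median of the 6 was 0.40, beside 0.20 for all tested members and 0.00 for the reference genes. With the trend on GC and length removed the median of all tested members was 0.02. SMAD2, a receptor-activated transducer, was at 177 ± 39.9 (SD, n = 4) CPM at 0 h and 229 ± 12.2 (SD, n = 4) at 96 h and was not called (adjusted p = 0.0778). None of the 6 was called at 96 h in the parental, LB1 or LB2 line or at 0 h in a tagged line. Few reference genes were called at 96 h in these 3 lines either (9.17%, 4.55% and 4.97%). At 0 h 20.6% of the reference genes were called in LAC, 5.44% in LB1 and 11.3% in LB2. For the LAC response minus the parental response at 96 h none of the 6 was called, beside 9.02% of the reference genes. SMAD4 differed by 0.38 (adjusted p = 0.251 in the edgeR fit) and SMAD7 by -0.50 (0.0884).

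Among transcription factors, GATA6, a factor of endodermal epithelia, fell in LAC at 96 h, log2 fold change -0.57, SE 0.13, adjusted p = 0.00238, from 126, 92.2, 104 and 94.6 to 73.7, 62.6, 68.1 and 75.5 CPM. The call was lost in 3 of 17 alternative fits (with no low-count filter, with the trend on GC and length removed and with that trend and the block), with an adjusted p of up to 0.105. Before auxin GATA6 was higher in LAC than in the parental line (log2 fold change 0.47, adjusted p = 0.0127 in the edgeR fit). ONECUT2 rose by 0.86 in the parental line, by as much in LAC (log2 fold change 0.86, SE 0.20, adjusted p = 0.00178) by 0.79 in LB2, a call lost in 6 of 16 alternative fits (5 of them leaving out 1 library, adjusted p up to 0.220). TCF4, a basic helix-loop-helix factor, was low in LB1. At 0 h it was at 22.8, 21.0, 16.9 and 19.6 CPM in the parental line and 6.94, 4.65 and 6.44 in LB1, log2 fold change -1.64, SE 0.22, adjusted p = 4.69e-07. With auxin it fell further in LB1, to 3.65, 3.66, 2.64 and 2.79 CPM at 96 h (log2 fold change -1.02, adjusted p = 0.00468), and without LB1 replicate 1 at 0 h the adjusted p was 0.0918. Of 15 zinc finger genes listed, 14 were members and 12 were tested. In LAC at 96 h ZNF519, ZNF397, ZNF532 and ZNF516 rose by 0.64, 0.52, 0.69 and 0.44 on the log2 scale and none was called lower (reference genes 9.21% higher and 12.4% lower). Their calls were lost in 8, 7, 4 and 7 of 17 alternative fits. The list's median was 0.36, beside 0.20 for all tested members (0.02 with the trend on GC and length removed) and 0.00 for the reference genes. ZNF516 at 0 h was lower in LAC (log2 fold change -1.19, SE 0.15, adjusted p = 2.68e-07) and in LB2 (log2 fold change -0.82, lost with the groups fitted alone) than in the parental line. ZNF519 at 0 h was also lower in LAC than in the parental line (log2 fold change -0.78, adjusted p = 0.00583 in the edgeR fit).

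Of 6 tested chromatin genes, INO80C, a subunit of the INO80 remodeller, fell at 96 h by 0.59 in LAC and by 0.68 in parental cells (log2 scale). These calls were lost in 5 and 4 of 17 alternatives, 3 of each leaving out 1 library, with an adjusted p of up to 0.087 and 0.0812. MBD1, which binds methylated CpG, fell by 0.56 in LAC, a call lost in 3 of 17 alternative fits (with no low-count filter, with the groups fitted alone and without LAC replicate 1 at 0 h, adjusted p up to 0.124). LAC replicate 1 at 0 h held 186 CPM of MBD1 and the others 98.7, 117 and 117. At 0 h MBD1 was higher in LAC than in the parental line (log2 fold change 0.56, adjusted p = 0.00887 in the edgeR fit). SMCHD1, an SMC-like silencer, rose in LB2 at 16 h by 0.47, a call lost in 10 of 17 alternative fits (6 of them leaving out 1 library, adjusted p up to 0.747). Of 11 tested genes of DNA replication, repair and mitosis, RBBP8 (end resection) and POLI (a translesion polymerase) rose and SKA1 (kinetochore) fell in LAC at 96 h, by 0.45, 0.50 and 0.37 on the log2 scale. The 3 calls were lost in 4, 7 and 6 of 17 alternatives, RBBP8 and POLI with the trend on GC and length removed. None of the 11 was called at 96 h in another line. Of the reference genes 21.6% were called in LAC at 96 h, and 9.17%, 4.55% and 4.97% in the parental line, LB1 and LB2. For the LAC response minus the parental response at 96 h none of the 11 was called, beside 9.02% of the reference genes. TYMS was at 77.3 ± 29.3 (SD, n = 4) CPM in LAC at 0 h and 82.9 ± 2.25 (SD, n = 4) at 96 h.

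BCL2, the anti-apoptotic founder of its family, rose in 3 lines. It was at 1.95, 2.31, 2.15 and 0.483 CPM in the parental line at 0 h and 3.76, 5.09, 3.39 and 3.86 at 96 h. In LAC it went from 1.62, 2.81, 1.91 and 2.94 to 6.68, 4.47, 5.60 and 6.90 CPM, and in LB2 from 3.88, 3.28, 2.48 and 2.55 to 8.38, 5.17 and 6.11. The log2 fold changes in that order were 1.12 (SE 0.29), 1.24 (0.26) and 1.14 (0.28). The parental call was lost without replicate 4 at 0 h, and that of LB2 was lost in 3 of 16 alternative fits (with the groups fitted alone, without LB2 replicate 3 at 0 h and without LB2 replicate 1 at 96 h, adjusted p up to 0.154). LB1 started high, at 4.66, 5.31 and 4.79 CPM (log2 fold change 1.37, SE 0.31, adjusted p = 0.00358), and stood at 4.94, 9.88, 8.84 and 9.97 at 96 h, which was not called (adjusted p = 0.106). PMAIP1, which encodes the pro-apoptotic NOXA, fell in parental cells by 0.52 at 16 h and 0.44 at 96 h, calls lost in 2 and 7 of 17 alternatives. RIOK3, a kinase of ribosome maturation, fell in LAC at 96 h by 0.32, a call lost in 8 of 17 alternative fits (5 of them leaving out 1 library, adjusted p up to 0.502).

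Among the 13 tested genes of endosomes, trafficking and lipid transport, ATP8B1 rose at 96 h in the parental line (0.77), LAC (0.49) and LB2 (0.71), and the LAC call was lost with the trend on GC and length removed (adjusted p = 0.0564). NPC1, the lysosomal cholesterol exporter, fell in LB1 by 0.56 and in LB2 by 0.53, calls lost in 4 and 8 of 16 alternatives. It was at 70.3 ± 9.23 (SD, n = 3) CPM in LB1 at 0 h and 48.3 ± 4.10 (SD, n = 4) at 96 h. LIPG, an endothelial-type lipase, was lower at 0 h in LAC (log2 fold change -0.80, SE 0.12, adjusted p = 2.65e-06) and in LB1 (log2 fold change -1.11, SE 0.13, adjusted p = 2.18e-08) than in the parental line. RAB27B, of exocytosis, rose in LAC at 96 h by 0.62, a call lost in 8 of 17 alternative fits (5 of them leaving out 1 library, adjusted p up to 0.211). Of 13 ubiquitin and proteostasis genes, TMX3, a disulfide isomerase of the endoplasmic reticulum, rose in LAC at 96 h by 0.62 (lost in 5 of 17 alternative fits, 4 of them leaving out 1 library, with an adjusted p of up to 0.133). RNF125, a ubiquitin ligase of antiviral signalling, rose in the parental line at 16 h by 0.74, and its response in LB1 at 96 h was below the parental one (log2 difference -1.05, lost in 4 of 24 alternative fits, 4 of them leaving out 1 library, with an adjusted p of up to 0.0886). CYB5A, cytochrome b5, was higher in LB1 than in the parental line at 0 h by 0.67.

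IMPA2, an inositol monophosphatase of the inositol cycle, rose at 96 h in each tagged line (ENSG00000141401.12, chr18:11981025-12030877, plus strand). In LAC it went from 5.83, 6.14, 9.85 and 9.35 to 20.2, 15.2, 18.2 and 18.1 CPM and in LB2 from 4.44, 6.99, 6.53 and 4.08 to 16.5, 17.1 and 14.7. In LB1 it went from 17.5, 14.6 and 20.9 to 22.5, 24.2, 34.1 and 31.0 CPM, and in each of the 3 lines all 96 h libraries exceed all 0 h libraries. The log2 fold changes were 1.19 ± 0.17 (SE; adjusted p = 2.02e-06), 1.43 ± 0.19 (1.29e-06) and 0.62 ± 0.18 (0.0367), and the LB1 call was lost in 7 of 16 alternative fits (5 of them leaving out 1 library, adjusted p up to 0.195). In LB2 the level was already 13.3, 13.1, 13.1 and 12.4 CPM at 16 h (log2 fold change 1.12, adjusted p = 2.88e-04, lost with the groups fitted alone). The parental line went from 11.6, 9.74, 10.0 and 10.1 to 14.5, 18.1, 13.6 and 12.2 CPM, a log2 fold change of 0.49 that missed the threshold (adjusted p = 0.0647). Over the parental response the excess in LAC, LB1 and LB2 was 0.70, 0.13 and 0.94, and none of these differences passed (adjusted p = 0.0609, 0.831 and 0.0802). At 0 h IMPA2 was higher than parental in LB1 (0.81, lost without LB1 replicate 3 at 0 h) and lower in LB2 (-0.80), so the rises ended at 17.9 ± 2.09 (SD, n = 4), 28.0 ± 5.52 (SD, n = 4) and 16.1 ± 1.27 (SD, n = 3) CPM from unequal starts.

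Of the 20 receptor, channel and neuronal genes listed only 5 were tested. GNAL, the olfactory G protein alpha subunit, rose in LAC at 96 h by 1.11, a call lost in 3 of 17 alternative fits (with the groups fitted alone, without LAC replicate 3 at 0 h and without LAC replicate 2 at 96 h, adjusted p up to 0.0813), and was higher in LB1 than in the parental line at 0 h, log2 fold change 2.08, SE 0.34, adjusted p = 2.56e-05. MBP, the myelin basic protein gene, rose in LAC by 0.44 (lost with the groups fitted alone). NOL4 had 11, 1, 5 and 3 counts in the parental libraries at 0 h and 0 in the 4 LB2 libraries at 0 h. In LAC at 0 h it had 0, 0, 3 and 0 counts. LB2 libraries had 2, 1, 0 and 0 at 16 h and 15, 0 and 1 at 96 h. Some LAC changes lay outside the lists. L3MBTL4, a malignant brain tumour repeat protein, went from 0.324, 2.00, 0.794 and 1.28 to 3.69, 4.19, 4.17 and 3.01 CPM in LAC. It was called higher in LB2 at 96 h as well (log2 fold change 1.54, adjusted p = 0.0397 in the edgeR fit). APCDD1, a Wnt inhibitor, went from 0.647, 1.11, 0.953 and 0.452 to 2.76, 2.63, 1.99 and 1.91 CPM, a call lost without LAC replicate 4 at 0 h (adjusted p = 0.0587). CTDP1, the phosphatase of the RNA polymerase II tail, fell from 55.8 ± 17.3 (SD, n = 4) to 31.8 ± 6.48 (SD, n = 4) CPM, lost with the groups fitted alone. In LB1 at 96 h CCDC68, a centriole protein, fell, log2 fold change -1.01, SE 0.17, adjusted p = 5.23e-05.

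Setting each tagged line's response at 96 h against the parental response asks what the tagged line shows beyond auxin itself. For LAC 18 members differed, 9 in each direction, 10.2% of those tested beside 9.02% of the reference genes and 7.4% of all genes. The members' median was 0.17 against -0.06, and among reference genes 2.52% were called higher and 6.51% lower. Under RLE scaling the split was 12 to 4 (reference genes 520 to 624) and under library size 22 to 3 (875 to 324). The second of these scalings raised the median over all genes by 0.21. SERPINB5 (1.19) and KIAA1328 (0.99, lost in 10 of 25 alternative fits, 9 of them leaving out 1 library, with an adjusted p of up to 0.0997) had the largest positive differences, followed by ZNF519 (0.97, lost in 8 of 25 alternative fits, 6 of them leaving out 1 library, with an adjusted p of up to 0.0897). SEC11C (-1.02), TXNL4A, a U5 snRNP protein (-0.95), and ZCCHC2 (-0.83) had the largest negative ones. SEC11C rose in the parental line from 8.77, 7.18, 8.79 and 7.01 to 17.9, 16.2, 15.2 and 17.2 CPM, whereas LAC went from 17.5, 19.4, 16.0 and 16.4 to 15.4, 20.2, 18.8 and 17.4. Its call was lost with library size alone. LAC replicate 1 at 0 h held 130.3 CPM of TXNL4A and the other 3 held 64.0 to 72.9, and the call was kept without it. For LB1 2 members differed (1 in each direction, reference genes 0.419% higher and 0.48% lower; in all 1.13% beside 0.899% and 1.04%). For LB2 2 differed, both higher (reference genes 0.213% higher and 0.0991% lower; in all 1.13% beside 0.312% and 0.368%). At an unadjusted p under 0.05 in the edgeR fit the counts for LAC, LB1 and LB2 were 44, 25 and 16 of 177 members. Over the 13121 reference genes they were 3483, 2073 and 1565, a higher share than the members' in each difference.

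ENOSF1, an enolase-family enzyme whose gene overlaps TYMS on the opposite strand, was called in all 3 of these differences and was singled out after its values were seen (ENSG00000132199.20, chr18:670318-712662, minus strand). In the parental line it went from 45.8, 41.7, 40.2 and 46.4 to 33.6, 30.6, 32.1 and 33.5 CPM at 96 h. In LAC it went from 25.6, 28.1, 25.9 and 31.9 to 34.1, 38.3, 36.7 and 32.3, in LB1 from 44.1, 42.5 and 45.5 to 53.6, 61.9, 48.6 and 49.2 and in LB2 from 26.1, 36.1, 36.8 and 34.6 to 51.7, 41.0 and 43.4. All parental libraries at 96 h lay below all those at 0 h, and in each tagged line all lay above. The differences from the parental response were 0.75 ± 0.17 (SE; adjusted p = 0.00517), 0.69 (0.039; lost in 13 of 24 alternative fits, 10 of them leaving out 1 library, with an adjusted p of up to 0.310) and 0.83 (0.0242; lost in 10 of 24 alternative fits, 7 of them leaving out 1 library, with an adjusted p of up to 0.175). All 3 differences use the same parental libraries. TYMS, the overlapping gene, was called in none of the 14 comparisons.

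Before any auxin, the tagged lines already differed from the parental line. In LAC 35 members were called, 20 higher and 15 lower (reference genes 13% and 7.65%), in all 19.8% beside 20.6% of the reference genes and 15.8% of all genes. Chromosome 18 had the lowest median of the 22 autosomes, -0.11 against 0.05, and chromosome 19 the highest, 0.33. Without LAC replicate 1 the median was 0.01, and without the libraries under 5000000 counts it was 0.01 and 19th of 22. The split was 18 to 22 with RLE scaling (reference genes 1443 to 1300) and 9 to 50 with library size (817 to 1992). SEC11C (1.13), RNF152 (1.31, lost in 3 of 17 alternative fits, with the groups fitted alone, without parental replicate 4 at 0 h and without LAC replicate 2 at 0 h, with an adjusted p of up to 0.205) and MTCL1, a microtubule cross-linker (1.03), were the most raised. SERPINB5 (-2.05), APCDD1 (-1.27, lost in 8 of 17 alternative fits, 6 of them leaving out 1 library, with an adjusted p of up to 0.174) and ZNF516 (-1.19) were the most lowered. In LB1 13 were called (9 higher, 4 lower, reference genes 2.39% and 3.06%; in all 7.34% beside 5.44% and 4.05%). In LB2 14 were called (7 in each direction, reference genes 5.76% higher and 5.52% lower, in all 7.91% beside 11.3% and 8.21%). The splits were 6 to 12 by library size (reference genes 532 to 977) and 24 to 11 with the trend on GC and length removed. FHOD3, a formin of sarcomeric actin, was lower in LB2, log2 fold change -1.46, SE 0.30, adjusted p = 6.77e-04, and TAF4B, a TFIID subunit, was higher by 0.83 (lost with the groups fitted alone). SEC11C was raised in LB2 as in LAC, by 1.07 on the log2 scale (adjusted p = 4.86e-04), and MTCL1 was also called higher in both. SERPINB5 and TIMM21, of mitochondrial protein import, were the members called in all 3 lines at 0 h, and no matching count over the reference genes is given here. TIMM21, named for LAC and LB1 after its values were seen, was higher in LAC, LB1 and LB2 by 0.61, 0.70 and 0.70 on the log2 scale (adjusted p = 0.00611, 0.011 and 0.00332). The 3 comparisons share the parental 0 h libraries, and each tagged line's 0 h libraries also enter its auxin comparisons.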

How the data were processed

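RNA sequencing libraries (total RNA, ribosomal RNA depleted, paired-end) were made from 46 wells of DLD-1 cells. The authors deposited raw counts per gene from featureCounts 1.6.4, in an nf-core/rnaseq 1.4.2 environment, per the file headers. STAR 2.7.10a, SAMtools 1.10, deepTools 3.4.5, DESeq2 1.40.2 and GRCh38 are named in the submitters' processing notes. Whether the counting used strand is not given in the sources used here. Gene types and GC content came from GENCODE 29 and promoters from RefSeq GRCh38.p14; 1 gene whose row was broken over lines was dropped.

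Counts were fitted with edgeR 4.0.16 in R 4.3.3 in 1 quasi-likelihood model of all 46 libraries with 12 groups, TMM scaling and filterByExpr, which kept 21484 genes. Tests were two-sided and p-values were adjusted by Benjamini-Hochberg over those genes in each of 14 comparisons, with a call at an adjusted p under 0.05. CPM values are TMM-scaled, and the SE is the absolute log2 fold change over the root of F. The fits were tested on simulated data. Total counts of 479446 to 37309421 per library set the precision of low genes. Alternatives were RLE scaling, library size alone, no low-count filter, DESeq2 1.42.0, the compared groups alone, a block on replicate number, no libraries under 5000000 counts, a spline trend (4 df) on GC content and length removed, that trend with the block, and each library left out. In LAC at 16 h against 0 h, deviations of same-numbered libraries correlated at 0.124 to 0.691 over 4 pairs. Only 3 libraries there correlated best with the library of their own number, so whether the number pairs libraries cannot be told.

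Genes named were, per comparison, the 3 called members with the largest rise and fall at a mean of at least 1 CPM, members called in all tagged lines at 96 h, up to 4 called members per role list, a fixed set of well-known members, and a few named as chosen after their values were seen. The members and the 14 role lists were chosen with earlier results of these data known. RPL17, SEH1L, NDUFV2 and ATP5F1A are not analysed here, single-gene results of 2 further members are not reported here, and the readthrough RPL17-C18orf32 is a member whose counts are uncertain.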

Additional observations from a re-analysis of the deposited data

Results flagged for a closer look

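Of 320 values per group of 4 libraries that were examined (30 genes and the chromosome's share and median deviation), 18 had a library far from the other 3, and chance gives about 1 in 20. Of these, 14 fell in 3 libraries. LB2 replicate 1 at 0 h (1894447 counts) had a chromosome share of 1.00%, a median deviation of members from other genes of -0.35 on the log2 scale, and 49.9 CPM of TYMS and 37.7 of ZNF516. LB2 replicate 3 at 16 h (479446 counts) had a share of 1.15%, a deviation of -0.13, and 63.1 CPM of TYMS, 131 of SMAD2, 21.8 of ANKRD29, 8.70 of L3MBTL4 and 0 of BCL2. LB1 replicate 1 at 16 h had 71.1 CPM of TYMS, 117.6 of MYL12A and 137 of SMAD2. The others were parental replicate 2 at 0 h with 85.1 CPM of LAMA3, parental replicate 3 at 16 h with 6.95 of ANKRD29 and 5.41 of GNAL, and LB2 replicate 4 at 0 h with 27.5 of DSC2. Whether depth or library make-up sets these values was not tested.

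The response to 96 h of auxin differed between LAC and the parental line, by edgeR's test of the difference, in 18 members, of which 17 are given. The log2 differences, LAC minus parental, were above 0 for SERPINB5 (1.19), KIAA1328 (0.99), ZNF519 (0.97), ANKRD29 (0.94), ENOSF1 (0.75), SERPINB8 (0.74), PMAIP1 (0.70), LIPG (0.68) and IMPACT (0.66). They were below 0 for SEC11C (-1.02), TXNL4A (-0.95), ZCCHC2 (-0.83), MTCL1 (-0.74), PHLPP1 (-0.65), GATA6 (-0.62), TUBB6 (-0.54) and CNDP2 (-0.52). For LB1 minus parental they were 0.69 for ENOSF1 and -1.05 for RNF125, and for LB2 minus parental 0.83 for ENOSF1 and 1.10 for SERPINB5. All these differences use the same 8 parental libraries.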

How the results depend on the processing

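Of 256 refitted counts of called members, 132 stayed within 1.5 times the main count and 124 moved further, and of 256 medians 236 stayed within the spread between replicates, 15 moved and 5 changed sign from a value farther from 0 than that spread. Counting all sizes, 30 medians lay on the other side of 0 than in the fit reported, 10 of them with 1 library left out, and no reported median among these was farther from 0 than 0.11. The cause of these moves was not tested. No value of a called gene changed direction. The main counts in the order parental, LAC, LB1 and LB2 were 18, 9, 2 and 5 at 16 h and 19, 44, 7 and 11 at 96 h. They were 18, 2 and 2 for LAC, LB1 and LB2 minus parental, and 35, 13 and 14 at 0 h. Once the trend on GC and length was removed, the counts that moved were 37 (parental), 3 (LAC), 13 (LB1) and 10 (LB2) at 16 h, 41 (parental), 22 (LB1) and 22 (LB2) at 96 h, 10 and 4 for LB1 and LB2 minus parental, and 23 (LB1) and 35 (LB2) at 0 h. With that trend and the replicate block they were 38, 5, 12 and 11 at 16 h, 41, 21 and 25 at 96 h, 10 and 4 for the differences, and 26 and 38 at 0 h. With the compared groups alone they were 38 (parental), 0 (LAC), 1 (LB1) and 0 (LB2) at 16 h, 37, 14, 17 and 1 at 96 h, 6 and 0 for LB1 and LB2 minus parental, and 13 (LAC) and 5 (LB2) at 0 h. Without libraries under 5000000 counts they were 31 (parental), 4 (LAC) and 9 (LB1) at 16 h, 38 (parental) and 16 (LB1) at 96 h, 6 and 0 for LB1 and LB2 minus parental, and 26 (LB2) at 0 h. With no low-count filter they were 1 (LB1) and 3 (LB2) at 16 h, 10 (parental) and 4 (LB1) at 96 h, and 6, 1 and 1 for the differences. DESeq2 called 17 (LAC) and 7 (LB1) at 16 h and 14 (LB1) and 18 (LB2) at 96 h. Library size alone gave 67 for LAC at 96 h, 59 for LAC at 0 h and 2 for LB2 at 16 h, and RLE scaling gave 2 for LB2 at 16 h. With library size alone the median over all genes shifted by -0.12 (parental) and -0.10 (LB1) at 16 h, 0.12 (LAC) at 96 h, 0.21, 0.17 and 0.15 for the differences and -0.18 (LAC) at 0 h, and RLE scaling by 0.10 for LB1 minus parental. The members' median reversed for parental at 16 h (RLE scaling -0.0027, library size -0.0213; DESeq2 gave 0.00) and for LB1 minus parental (RLE 0.0092, library size 0.0828, DESeq2 0.0138). Medians closer to 0 than the spread changed sign under these 3 settings for parental at 96 h, LB1 at 16 h and LB2 minus parental, under library size for LB1 at 96 h and LB2 at 0 h, without the shallow libraries for LAC at 0 h and LB2 at 96 h, and with the trend on GC and length removed for LB2 at 96 h.

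With replicate number as a block, the counts moved past 1.5 times for LB1 at 16 h (4 called) and LB1 minus parental (1 called), and for LAC at 16 h 8 were called. Whether libraries that share a number were paired cannot be told in any of the comparisons.

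Leaving out 1 library gave counts of 10 to 27 (parental), 0 to 44 (LAC), 1 to 4 (LB1) and 1 to 16 (LB2) at 16 h. The lowest were without parental replicate 1 at 0 h, LAC replicate 4 at 16 h, LB1 replicate 1 at 0 h and LB2 replicate 3 at 0 h. At 96 h they were 12 to 18, 28 to 67, 4 to 7 and 4 to 13, lowest without parental replicate 1, LAC replicate 1 and LB1 replicate 1 at 0 h and LB2 replicate 3 at 96 h. For the differences they were 8 to 26, 0 to 2 and 0 to 2, and at 0 h 29 to 40, 8 to 14 and 11 to 28. The LB2 count reached 16 at 16 h without replicate 2 at 0 h and 28 at 0 h without replicate 1, LB1 at 0 h fell to 8 without replicate 2, and LAC minus parental to 8 without parental replicate 2 at 96 h. A count of 0 in a library of 479446 allows 6.53 CPM, so members near 1 CPM cannot be read in it.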
